A study of Mus musculus with 19 samples.

Results

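The response of ICAM-1 null lavage cells to bacterial particles was taken from 10 of the 19 libraries of the series: 5 from ICAM-1 null mice lavaged 1 h after Staphylococcus aureus pHrodo bioparticles and 5 from naive ICAM-1 null mice. Libraries were chosen by genotype and treatment label, and all 20501 genes that passed a filter on low counts were tested. The other 9 libraries, from 4 naive and 5 exposed wild type C57Bl/6J mice, were used only to share the estimate of spread and to ask where the null response differed. Every mouse was female and between 7 and 8 weeks old. Exposed mice had aspirated 100 µL of particles at 2.27 mg/mL through the oropharynx under isoflurane. The ICAM-1 null line was credited by the submitters to an earlier publication. The sources used here do not give its backcross history, the use of littermates or any sham treatment of naive mice. Differences between the lines therefore cannot be told apart from loss of ICAM-1. Each library was made from a whole lavage pellet, with no sort of the cells described, so that fewer cells of a type and less RNA per cell cannot be told apart.

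Alveolar macrophages are the resident phagocytes of the airspace. They detect lipoproteins and peptidoglycan of Gram-positive bacteria through TLR2 with its partner TLRs and CD14, and through NOD2 after uptake. Signals through MYD88, IRAK and TRAF6 activate the transcription factors NF-kB and AP-1, which drive cytokine genes and at the same time the inhibitors that end the signal. ICAM-1, the protein missing in this line, is a surface ligand of leukocyte integrins whose own gene is a textbook target of NF-kB. The pHrodo dye on the particles brightens in acid compartments.

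Total estimated counts were 59.8 to 78.8 M in naive and 57.0 to 66.3 M in exposed null libraries. In a principal component analysis of 2000 genes with the highest variance, the leading axis took up 57.8% of the variance among the 10 libraries and set all naive mice (-57.7 to -54.4) apart from all exposed mice (43.2 to 65.1). The second held 7.90% and spread the exposed mice, with mice 1 and 2 at -26.3 and -28.0, mouse 4 at -4.40, and mice 5 and 3 at 30.6 and 35.7. The samples are separate mice by their numbering, and p-values measure the spread between these mice. Levels are given in TPM (a measure of transcript abundance scaled for length and to the same total in each library), as mean ± SD with n = 5. Fold changes come from edgeR's quasi-likelihood test on the estimated counts, with SE the standard error and Benjamini-Hochberg adjusted p-values over all genes tested. A gene is said to rise or fall at an adjusted p under 0.05.

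The targeted gene was looked at first. Icam1 (ENSMUSG00000037405.9, chromosome 9, 20927281 to 20940113, GRCm39) stood at 11.5, 9.52, 8.40, 4.88 and 6.29 TPM in naive null mice 1 to 5 and at 13.2, 9.71, 9.48, 11.6 and 9.91 TPM in exposed null mice 1 to 5. The groups overlapped, and the small rise passed the test (log2 fold change 0.75, SE 0.17, adjusted p = 0.00119). In wild type mice the same transcript went from 81.4, 85.9, 63.8 and 67.2 TPM in 4 naive mice to 962, 749, 1079, 982 and 722 TPM in 5 exposed mice, above every null library. The difference of the log2 fold changes, null minus wild type, was -3.21, SE 0.25, adjusted p = 6.6e-07. Which part of the transcript remains in the null line was not analysed here.

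The label of alveolar macrophage was matched by its markers. The 12 markers (Siglecf, Marco, Chil3, Ear1, Ear2, Fabp4, Car4, Krt79, Itgax, Mrc1, Plet1 and Cidec) summed to 28600 to 31800 TPM in naive and 29800 to 34900 TPM in exposed null mice. None of them was at 0. Neutrophil markers summed to 208 to 246 TPM in naive and 266 to 333 TPM in exposed mice. Of the granule genes among them Elane and Ngp were at 0 in all 10 libraries, and Mpo was at 0 in naive mice only. The granule genes Ltf, Mmp8, Mmp9 and Lcn2 were among the 12 of 16 neutrophil markers that passed the filter on low counts. Of these 12 markers 5 rose and 1 fell. The eosinophil and mast cell markers summed to at most 0.679 TPM in any mouse.

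Within 1 h the transcriptome was remodelled in both directions. Of 20501 genes, 9180 (44.8%) passed the test, 4387 (21.4%) higher and 4793 (23.4%) lower after exposure. Rises reached further than falls: 859 genes rose and 529 fell at least 4-fold, 289 rose and 70 fell at least 16-fold, and 127 rose and 30 fell at least 64-fold. The 10 libraries fell into 2 groups with no overlap in TPM at 8338 genes (40.7%). The 859 genes that rose at least 4-fold held 1.42 to 1.53% of all TPM in naive mice and 10.3 to 12.8% in exposed mice, the lowest share being that of mouse 3. The 1758 genes that fell at least 2-fold went from 2.05 to 2.26% down to 0.49 to 0.71%. TPM of every library sum to the same total, so that a gain in some transcripts lowers the share left for the others. The median log2 change over all genes was 0.02 after edgeR's scaling and -0.32 on the log2(TPM + 1) scale, where limma called 2001 genes (12.8% of 15642) higher and 7993 (51.1%) lower. For each gene group below, the median on both scales is therefore given, to be read against 0.02 and -0.32, and so is the number called higher and lower by limma on log2(TPM + 1), named the TPM scale, among the members that passed its own filter.

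**Figure D1:**
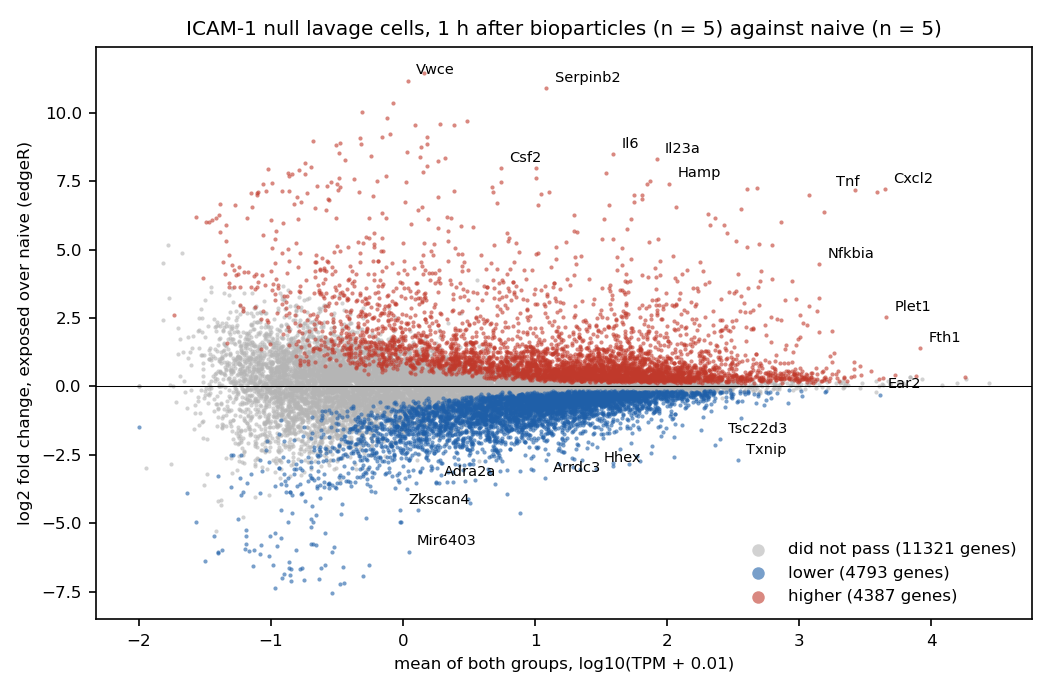
Each point is 1 of 20501 genes, with its mean level over both null groups (log10 of TPM + 0.01) against its log2 fold change on exposure, coloured by the edgeR call. Rises of more than 4 on the log2 scale span low and high levels alike, while falls of that size lie in the left part of the plot. Points at the far left and the largest folds include genes with no counts in naive mice, whose fitted fold depends on the small count added by the model.

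Among called genes, the transcripts that gained the most TPM were cytokines, an inhibitor of NF-kB and a few abundant macrophage genes. Cxcl2, a neutrophil chemoattractant (chromosome 5, 91051730 to 91053797), stood at 77.1, 79.1, 73.6, 72.0 and 79.9 TPM in naive mice 1 to 5 and at 11706, 10763, 7017, 8149 and 6889 TPM in exposed mice 1 to 5. The fold change was 7.20 (SE 0.31) on the log2 scale with adjusted p = 5.8e-14. Tnf, the gene of tumour necrosis factor (chromosome 17, 35418357 to 35420983), stood at 83.2, 74.6, 75.9, 60.5 and 66.9 TPM in naive and 9903, 8957, 5716, 7487 and 6810 TPM in exposed mice (log2 fold change 7.10, SE 0.20, adjusted p = 7.9e-17). Exposed mice 1 and 2 were highest and mice 3 and 5 lowest for both transcripts. Plet1, a surface protein gene of alveolar macrophages, went from 1642 ± 111 to 7436 ± 1021 TPM, and Fth1, the heavy chain of the iron store ferritin, from 5410 ± 617 to 11050 ± 1098 TPM. Ccl3 gained nearly as much, from 38.5 to 54.7 TPM in naive mice to 4271 to 5603 TPM in exposed mice, followed by Il1a, Nfkbia and Il1b. Plek, the gene of the platelet and leukocyte protein pleckstrin, went from 341 ± 44.5 to 2492 ± 325 TPM and Slfn2, a Schlafen gene, from 432 ± 56.2 to 2309 ± 162 TPM. None of these groups of 5 overlapped.

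Among called genes, the largest losses in TPM were smaller. Ear2, a ribonuclease of alveolar macrophages, went from 4975 ± 161 to 3169 ± 309 TPM with a log2 fold change of only -0.30 (SE 0.07). Msrb1, Mpeg1, Ubb, Flna and Itm2b followed at log2 fold changes of -0.35 to -0.17, with Msrb1, a selenoprotein gene, going from 1857 ± 63.0 to 1272 ± 158 TPM and Flna, or filamin A, from 867 ± 59.0 to 489.7 ± 58.9 TPM. In fold, the losses of Txnip, Tsc22d3, Rsrp1 and Abcg1 were larger (-2.68, -1.93, -1.14 and -0.68 on the log2 scale). Txnip, which encodes an inhibitor of thioredoxin and of glucose uptake, stood at 612, 595, 479, 598 and 791 TPM in naive and 54.9, 68.4, 112, 90.5 and 47.3 TPM in exposed mice (log2 fold change -2.68, SE 0.22, adjusted p = 2.6e-09). Rsrp1, an arginine and serine rich protein gene, went from 538 ± 62.7 to 191 ± 29.3 TPM. The small falls of Msrb1, Mpeg1 and Itm2b did not hold under every setting: their calls were lost in 8, 7 and 9 of the 10 fits that left out 1 null library, with adjusted p of up to 0.13, 0.14 and 0.14, and with all mice in DESeq2 (adjusted p of 0.053, 0.084 and 0.081).

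Tlr2 and Nod2, which sense Gram-positive bacteria, rose while several other TLR genes fell. Of 17 TLRs and co-receptors, 9 rose, 5 fell and 3 did not pass, with a median log2 fold change of 0.52 that was 0.00 on the TPM scale with 6 of 15 higher and 6 lower. Tlr2 (chromosome 3, 83743579 to 83749074) stood at 203, 208, 179.7, 201 and 197 TPM in naive and 1539, 1296, 1354, 1269 and 1352 TPM in exposed mice (log2 fold change 3.14, SE 0.10, adjusted p = 3.6e-16). The exposed mice differed little from one another, and all were far above the naive mice. Nod2, the cytosolic sensor of muramyl dipeptide, went from 3.35 ± 0.282 to 14.3 ± 1.07 TPM, and Tlr9, a sensor of bacterial DNA, from 0.337 ± 0.0920 to 1.45 ± 0.444 TPM. Tlr7, a sensor of single-stranded RNA, rose by 0.86 (SE 0.10). In contrast Tlr8, also an endosomal RNA sensor, stood at 28.4 to 38.7 TPM in naive and 6.23 to 11.7 TPM in exposed mice (log2 fold change -1.70, SE 0.19). Tlr4, the lipopolysaccharide receptor, changed by -0.63 (SE 0.13), and Tlr6, a partner of TLR2, by -0.72 (SE 0.13); both fell.

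Among 21 adaptors and kinases below these receptors, 14 rose, 6 fell and 1 did not pass (median 0.55, and 0.27 on the TPM scale with 11 of 21 higher and 6 lower). Myd88, the central adaptor, rose by 0.72 (SE 0.06) and Ticam1, the adaptor of the alternative TRIF route, by 1.79 (SE 0.10). The TRAF signal transducers Traf1 and Traf3 rose by 2.68 (SE 0.16) and 1.21 (SE 0.11), and Tollip, which restrains TLR signals, by 1.10 (SE 0.08). Tab1, a subunit of the TAK1 kinase complex, fell (log2 fold change -1.99, SE 0.18, adjusted p = 6.4e-09). Every exposed mouse (1.99 to 3.56 TPM) was below every naive mouse (12 to 16.0 TPM). Of 14 inflammasome genes 4 rose, 5 fell and 5 did not pass. Nlrp3, the sensor of the main inflammasome, stood at 38, 32.5, 30.1, 34.7 and 30.6 TPM in naive and 1173, 1052, 787, 866 and 916 TPM in exposed mice (log2 fold change 5.19, SE 0.12, adjusted p = 6.1e-18). Casp4, which binds lipopolysaccharide, and Ninj1, which ruptures the membrane of dying cells, rose by 2.83 (SE 0.13) and 3.13 (SE 0.21). The adaptor Pycard (-0.50), the pore gene Gsdmd (-0.28), Card9 (-0.54) and Nlrp1b (-0.70) fell, and Casp1 did not pass (77.9 ± 6.59 to 67.8 ± 4.73 TPM). The list's median was -0.04, and -0.43 on the TPM scale with 3 of 13 higher and 7 lower.

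Uptake receptors moved selectively. Of 29 phagocytic receptors 13 rose, 8 fell and 8 did not pass; the median, 0.26, turned to -0.11 on the TPM scale with 8 of 28 higher and 13 lower. The C-type lectins of the mincle cluster rose: Clec4d went from 21.4 ± 4.96 to 176 ± 19.8 TPM and Clec4n from 358 ± 36.3 to 872 ± 111 TPM. C5ar1, the receptor of complement fragment C5a, went from 198 ± 9.36 to 664 ± 71 TPM, and Olr1, a scavenger receptor, from 139.5 ± 16.3 to 756 ± 138 TPM. Trem1, an amplifier of TLR signals, stood at 18.7, 24.3, 15.8, 23.9 and 23.0 TPM in naive and 112, 100.5, 136, 101 and 141 TPM in exposed mice (log2 fold change 2.85, SE 0.14, adjusted p = 3.1e-13). Siglec1, a sialic acid receptor, fell (-0.78, SE 0.11), as did the Fc receptors Fcgr1 (-0.49), Fcgr2b (-0.48) and Fcgr3 (-0.55). Marco, the scavenger receptor that binds S. aureus, was abundant in both groups (1844 ± 206 to 1963 ± 368 TPM). Its small rise passed the test, but not in 5 of the 10 fits that left out 1 null library (without naive mouse 1 or 5 or exposed mouse 3, 4 or 5), with adjusted p of up to 0.11, nor with no filter on low counts (0.07) or on the TPM scale (log2 change 0.08, adjusted p = 0.69).

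Phagosome and lysosome genes changed little in comparison. Of 38 tested, 20 rose, 3 fell and 15 did not pass, with a median of 0.23 that turned to -0.16 on the TPM scale with 11 of 38 higher and 18 lower. Rab20, a small GTPase of phagosome maturation, stood apart with 28.5, 31.8, 35.5, 29.8 and 34.6 TPM in naive and 152, 177, 241, 161 and 233 TPM in exposed mice (log2 fold change 2.94, SE 0.15, adjusted p = 6.7e-13). The proton pump subunit Atp6v1e1 rose by 1.25 (SE 0.06) and the cathepsin Ctsb by 0.67 (SE 0.06), while Tfeb, the regulator of lysosome genes, fell by 0.51 (SE 0.15). The oxidase list had 7 of 11 members rising and 0 falling (median 1.01, and 0.02 on the TPM scale with 4 of 9 higher and 2 lower). Among these were Ncf1 and Cybb, subunits of the phagocyte NADPH oxidase, with log2 fold changes of 2.12 (SE 0.11) and 1.18 (SE 0.08). Gch1, which makes the cofactor of nitric oxide synthase, went from 13.8 ± 1.54 to 84.7 ± 8.79 TPM, and the mitochondrial superoxide dismutase Sod2 from 39.5 ± 4.56 to 187 ± 23.5 TPM. Nos2, the inducible synthase itself, stayed at 0.126 ± 0.0604 to 0.203 ± 0.218 TPM and did not pass.

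All 5 NF-kB subunits rose, with a median log2 fold change of 3.20 (2.72 on the TPM scale with 5 of 5 higher and 0 lower). Rel, the subunit c-Rel, stood at 11.3, 11.4, 9.56, 10.8 and 10.3 TPM in naive and 115, 97.7, 72.6, 77.9 and 90.2 TPM in exposed mice (log2 fold change 3.44, SE 0.12, adjusted p = 2.7e-15). Nfkb2 went from 34.0 ± 3.11 to 311 ± 52.4 TPM, Relb from 22.0 ± 2.86 to 150.2 ± 17.5 TPM and Nfkb1 from 70.3 ± 5.09 to 319.7 ± 44.9 TPM. Rela, the activating p65 subunit, changed least of the family, by 2.05 (SE 0.08). In each of these transcripts every exposed mouse was above every naive mouse.

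The inhibitors of NF-kB rose with its subunits. Of 11 IkB and IKK genes 8 rose, 1 fell and 2 did not pass (median 3.0, and 2.60 on the TPM scale with 8 of 11 higher and 3 lower). Nfkbia, the prototype inhibitor IkB alpha (chromosome 12, 55536195 to 55539432), stood at 115, 152, 151, 170.1 and 191 TPM in naive and 2576, 2904, 2621, 2481 and 2880 TPM in exposed mice (log2 fold change 4.46, SE 0.15, adjusted p = 8.5e-16). Its exposed values differed by a coefficient of variation of 7.03%, against 21.5% for Tnf and 24.8% for Cxcl2. The nuclear family members Nfkbid and Bcl3 went from 14.7 ± 1.07 to 557 ± 71.8 TPM and from 6.91 ± 1.07 to 67.5 ± 19.1 TPM, and Nfkbie and Nfkbib rose by 3.83 (SE 0.13) and 3.0 (SE 0.11). The kinase genes Chuk and Ikbkb did not pass, with 0.19 (SE 0.08) and 0.10 (SE 0.06). On the TPM scale limma called both lower, at -0.22 (adjusted p = 0.017) and -0.25 (adjusted p = 0.0012), less than the shift of all genes. EdgeR fits without naive mouse 1, 2 or 4 or exposed mouse 3 or 4 called Chuk higher (adjusted p of 0.031 to 0.043). With all mice Chuk passed as higher in DESeq2 (0.022) and in some other settings of the count model (0.016 to 0.04). Ikbkg fell by 0.38 (SE 0.09). Of 14 ubiquitin-editing genes, 7 rose and 4 fell, with 7 of 14 higher and 7 lower on the TPM scale. Tnfaip3, the deubiquitinase A20, stood at 36.3, 35.6, 29.1, 31.6 and 41.2 TPM in naive and 872, 836, 690.2, 664 and 823 TPM in exposed mice (log2 fold change 5.10, SE 0.14, adjusted p = 4.4e-17). Its binding partners Tnip1 and Tnip3 rose by 2.80 (SE 0.09) and 4.54 (SE 0.35), whereas the ligase gene Birc2 fell by 0.37 (SE 0.09).

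Promoter sequences were set beside these rises, because the genes moved together and the NF-kB and AP-1 letters can be read in them. The RefSeq promoter table (build GRCm38.p6, which is not the build of the gene coordinates above) had entries for 12180 tested genes. Where a gene had more than 1 start site, as Serpinb2 and Tnfaip3 with 2, the first listed was used. The 250 bases before the start were searched. A kappa B match, on either strand, was found in 4.41% of these promoters, in 10.3% of 281 promoters of genes that rose at least 8-fold, in 2.08% of 240 promoters of genes that fell at least 4-fold and in 4.24% of those that did not pass. The AP-1 letters TGANTCA, on either strand, stood in 4.87%, 14.2%, 5.83% and 5.02% of the same sets in that order. The letters TATAAA, read only in the direction of the gene, stood in 4.47%, 10.3%, 4.58% and 4.84%. Searches for 2 other motifs differed little between the sets. The letters TGACGTCA (CRE) stood in 2.58%, 3.2%, 2.08% and 2.23%, and the CArG motif in 1.19%, 1.42%, 0.833% and 1.26%. These are descriptions of letters in a window, not of bound sites. For 6 genes the sequence follows, 170 bases each and ending 1 base before the start, with matches in capitals. Serpinb2, Egr4 and Il6 are among the 5 largest rises with an entry, of which Vwce and Cnfn held no match. Cxcl1, Cxcl2 and Nfkbia were added after their values and their matches were seen. Of the other rising genes looked at, Tnf and Il1b held a TATA match and no kappa B match. Tnfaip3 held kappa B, AP-1 and TATA matches, and Ccl3, Ptgs2, Csf2 and Icam1 held no match.
Serpinb2, chr1:107511253-107511422, plus strand: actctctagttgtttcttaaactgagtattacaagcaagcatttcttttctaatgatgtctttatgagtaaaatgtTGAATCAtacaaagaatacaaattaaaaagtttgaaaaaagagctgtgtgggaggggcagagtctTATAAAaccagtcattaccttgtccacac
Egr4, chr6:85513590-85513759, minus strand: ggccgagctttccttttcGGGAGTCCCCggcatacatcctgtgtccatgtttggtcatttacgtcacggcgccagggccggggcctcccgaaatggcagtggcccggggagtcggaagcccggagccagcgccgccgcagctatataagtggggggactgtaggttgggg
Il6, chr5:30012944-30013113, plus strand: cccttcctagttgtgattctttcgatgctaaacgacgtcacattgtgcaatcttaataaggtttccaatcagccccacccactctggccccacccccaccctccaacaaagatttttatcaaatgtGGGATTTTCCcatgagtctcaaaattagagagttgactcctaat
Cxcl1, chr5:90891075-90891244, plus strand: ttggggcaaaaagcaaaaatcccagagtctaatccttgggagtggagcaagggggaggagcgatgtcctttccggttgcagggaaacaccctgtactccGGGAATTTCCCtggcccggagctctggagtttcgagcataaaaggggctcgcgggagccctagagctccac
Cxcl2, chr5:90903729-90903898, plus strand: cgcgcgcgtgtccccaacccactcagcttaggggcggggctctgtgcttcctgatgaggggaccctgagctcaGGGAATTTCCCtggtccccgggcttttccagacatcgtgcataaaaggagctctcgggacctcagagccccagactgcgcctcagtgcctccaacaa
Nfkbia, chr12:55492648-55492817, minus strand: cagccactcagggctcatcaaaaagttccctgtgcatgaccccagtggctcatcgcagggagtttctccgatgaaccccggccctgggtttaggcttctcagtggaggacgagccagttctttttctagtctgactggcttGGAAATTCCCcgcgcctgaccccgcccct
In Serpinb2 the capitals mark an AP-1 match beginning 94 bases before the start and a TATA match at 29. The others mark kappa B matches beginning 152 bases before the start in Egr4, 44 in Il6, 71 in Cxcl1, 97 in Cxcl2 and 29 in Nfkbia. Cxcl1 and Cxcl2 carry the same palindromic stretch, in which matches on both strands overlap. Il6 holds a further AP-1 match at 249, outside the printed stretch.

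AP-1 and other early response factors rose widely, but not their best known member. Of 34 such genes 25 rose, 3 fell and 6 did not pass, with medians of 1.56 and 1.19 (TPM scale, with 22 of 34 higher and 5 lower). Egr3, a zinc finger factor of the immediate-early class, stood at 0.297, 0.378, 0.168, 0.290 and 0.248 TPM in naive and 31.5, 19.4, 20.8, 17 and 14.3 TPM in exposed mice (log2 fold change 6.64, SE 0.26, adjusted p = 1.2e-14). Its relative Egr4 was at 0 in all 5 naive mice and at 2.60, 1.29, 1.62, 0.933 and 0.977 TPM in exposed mice, at least 9.45-fold higher when naive libraries are set to 3 fragments each. The small MAF factors Maff and Mafk went from 79.8 ± 4.66 to 739.7 ± 48.1 TPM and from 33.7 ± 2.36 to 145 ± 15.1 TPM. Csrnp1, a nuclear factor induced by AXIN1, went from 18.6 ± 2.77 to 335 ± 63.5 TPM and Atf3, a repressor of TLR targets, from 19.3 ± 3.27 to 219 ± 24.8 TPM. Fos itself fell, from 84.5 to 152 TPM in naive mice to 26.6 to 77.6 TPM in exposed mice (log2 fold change -0.83, SE 0.22, adjusted p = 0.00341), while Jun rose by 0.46 (SE 0.12), a call lost on the TPM scale (0.09, adjusted p = 0.58). Klf4, a Kruppel-like factor of monocytes, stood at 169, 139.8, 159, 145 and 117 TPM in naive and 32.79, 26.4, 40.01, 40.7 and 23.3 TPM in exposed mice (log2 fold change -1.81, SE 0.15, adjusted p = 2.2e-09).

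Genes that end MAP kinase and cytokine signals split by member. Of 17 dual-specificity phosphatases and sprouty genes, 11 rose and 3 fell (median 1.32, and 0.57 on the TPM scale with 9 of 16 higher and 4 lower). The nuclear phosphatases Dusp2 and Dusp5 went from 3.67 ± 0.251 to 79.4 ± 28.3 TPM and from 45.9 ± 4.68 to 277 ± 44.7 TPM, and Dusp8 and Dusp16, which act on stress kinases, rose by 4.79 (SE 0.33) and 2.63 (SE 0.12). The cytoplasmic ERK phosphatases went the other way: Dusp6 stood at 139.9, 78.8, 95.9, 77.2 and 76.3 TPM in naive and 10.6, 10.4, 13.1, 9.93 and 6.63 TPM in exposed mice (log2 fold change -2.85, SE 0.21, adjusted p = 3.1e-10), and Dusp7 fell by 1.88 (SE 0.16). In the JAK-STAT list 15 of 25 rose and 6 fell (medians 0.70 and 0.22, with 13 of 25 higher and 8 lower on the TPM scale). Socs3, the inhibitor of IL-6 family signals, stood at 13.5, 12.6, 12, 7.55 and 11.6 TPM in naive and 505, 488, 450.4, 508 and 714 TPM in exposed mice (log2 fold change 5.90, SE 0.16, adjusted p = 5.7e-17). Cish, another suppressor, rose by 1.63 (SE 0.13), the kinase Jak2 by 2.22 (SE 0.18) and the survival kinases Pim1 and Pim3 by 2.96 (SE 0.13) and 2.70 (SE 0.18). Socs2, a suppressor of growth hormone signals, fell by 0.79 (SE 0.10).

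RNA-binding proteins that degrade cytokine messages also split. Of 15 genes in this list 9 rose and 3 fell, and the median of 0.25 turned to -0.08 on the TPM scale with 5 of 15 higher and 5 lower. Zfp36, or tristetraprolin, which binds AU-rich elements, stood at 69.8, 58.1, 57.8, 60.9 and 63.7 TPM in naive and 642, 746, 465, 454 and 329 TPM in exposed mice (log2 fold change 3.46, SE 0.17, adjusted p = 5.2e-13). The endonucleases Zc3h12a (regnase-1) and Zc3h12c went from 33.7 ± 3.99 to 302 ± 44.1 TPM and from 1.88 ± 0.155 to 62.1 ± 16.0 TPM. Their relatives went the other way: Zfp36l2 went from 289 ± 35.0 to 74.1 ± 19.2 TPM and Zc3h12d from 5.43 ± 0.760 to 1.07 ± 0.254 TPM, and both fell. Elavl1, or HuR, which stabilises such messages, rose by 0.69 (SE 0.05).

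**Figure D2:**
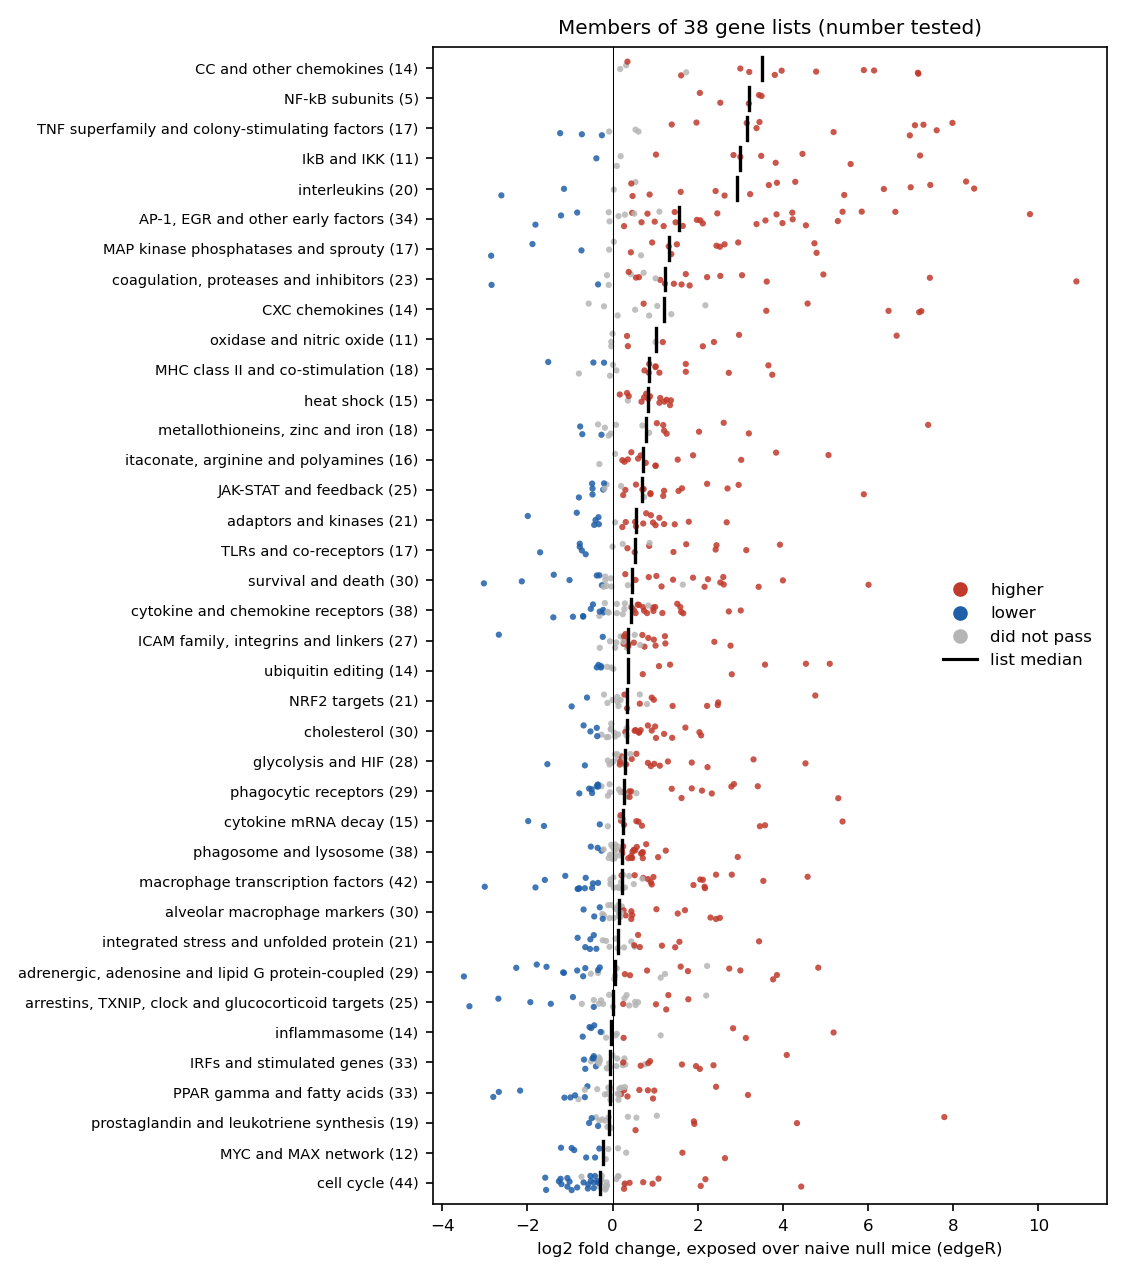
Each point is a tested member of 1 of 38 gene lists, placed by its log2 fold change (edgeR) and coloured by its call, and the black bar is the list's median. The CC chemokine, NF-kB, TNF superfamily, IkB and interleukin lists have medians of 2.93 to 3.51, while cell cycle and MYC lists have medians of -0.30 and -0.24.

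Interleukins rose in 16 of 20 cases, with 2 falling (medians 2.93 and 2.07, with 10 of 16 higher and 2 lower on the TPM scale). Il1a and Il1b, neighbours on chromosome 2, encode the 2 forms of interleukin-1. Il1a (chromosome 2, 129141530 to 129151892) stood at 47.5, 56.5, 49.8, 43.3 and 37.2 TPM in naive and 3934, 3404, 2401, 2836 and 2683 TPM in exposed mice (log2 fold change 6.37, SE 0.17, adjusted p = 4.8e-17). Il1rn, which encodes their receptor antagonist, went from 147 ± 11.5 to 1625 ± 316 TPM and so had the highest naive level and the smallest fold of the 3. Il6 (chromosome 5, 30218112 to 30224979) stood at 0.352, 0.127, 0.206, 0.0811 and 0.791 TPM in naive and 104, 107, 46.0, 59.6 and 73.9 TPM in exposed mice, with mice 1 and 2 highest and mouse 3 lowest. Clcf1, an IL-6 family ligand, went from 13.6 ± 2.63 to 65.7 ± 10.7 TPM. Il16, a T cell chemoattractant, fell from 28.1 to 40.4 TPM in naive mice to 2.61 to 8.81 TPM in exposed mice (log2 fold change -2.61, SE 0.23, adjusted p = 5.6e-09), and Il15, a growth factor of NK cells, fell by 1.14 (SE 0.26). Il10, the anti-inflammatory interleukin, rose to only 0.583 to 2.42 TPM.

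Colony-stimulating factors went from near 0 to measurable levels. Csf2, the gene of GM-CSF on which alveolar macrophages depend, stood at 0, 0.1002, 0, 0 and 0.131 TPM in naive and 12.3, 14.6, 2.75, 10.5 and 14.8 TPM in exposed mice (log2 fold change 7.98, SE 0.79, adjusted p = 3.7e-08). Exposed mouse 3 was well below the other 4. Csf3, the granulocyte factor, stood at 0.212, 0.0705, 0.0586, 0.142 and 0.0899 TPM in naive and 20.8, 29.1, 15.9, 16.5 and 18.8 TPM in exposed mice, and Csf1 rose by 3.15 (SE 0.23). Tnfsf9, the ligand of 4-1BB, went from 1.10 ± 0.318 to 110.4 ± 25.6 TPM, and Tnfsf14, or LIGHT, rose by 3.38 (SE 0.34). The death ligand Tnfsf10 (TRAIL) fell by 1.23 (SE 0.25) at a low level. Across the TNF superfamily and these factors 11 of 17 rose and 3 fell (medians 3.15 and 0.97, with 9 of 14 higher and 3 lower on the TPM scale).

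Chemokines for neutrophils and monocytes were among the largest rises. Of 14 CXC ligands 6 rose and none fell (medians 1.22 and 1.67, with 5 of 10 higher and 0 lower on the TPM scale), and of 14 CC and related genes 11 rose and none fell (medians 3.51 and 2.61, with 9 of 13 higher and 0 lower on the TPM scale). Cxcl1, Cxcl2 and Cxcl3, ligands of CXCR2, lie within a cluster on chromosome 5 (90933962 to 91053797 in GRCm39). Cxcl1 stood at 7.31, 10.1, 7.60, 6.72 and 8.36 TPM in naive and 1573, 1117, 727, 694 and 664 TPM in exposed mice (log2 fold change 7.25, SE 0.33, adjusted p = 1.4e-13), with mouse 1 highest and mouse 2 next. Cxcl10, an interferon-inducible T cell attractant, rose by 4.58 (SE 0.32), and the membrane-bound Cxcl16 by 3.61 (SE 0.18). Cxcl9 and Cxcl5 did not pass, with 2.25 ± 0.478 to 3.20 ± 2.25 TPM and 0.216 ± 0.0859 to 0.487 ± 0.386 TPM. Cxcl9 passed as higher without exposed mouse 4 (adjusted p = 0.037) and with all mice in DESeq2 (0.045). Ccl3 and Ccl4, neighbouring chemokine genes on chromosome 11, rose by 7.17 (SE 0.23) and 5.90 (SE 0.28). Beside them lie Ccl6, which did not pass (4999 ± 625 to 4388 ± 740.4 TPM), and Ccl9, which rose by 3.21 (SE 0.25). Ccl17, a ligand of CCR4, went from 17.3 ± 7.74 to 211 ± 73.9 TPM, and Ccrl2, a chemokine-like receptor, from 7.43 ± 1.29 to 452 ± 48.3 TPM.

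**Figure D3:**
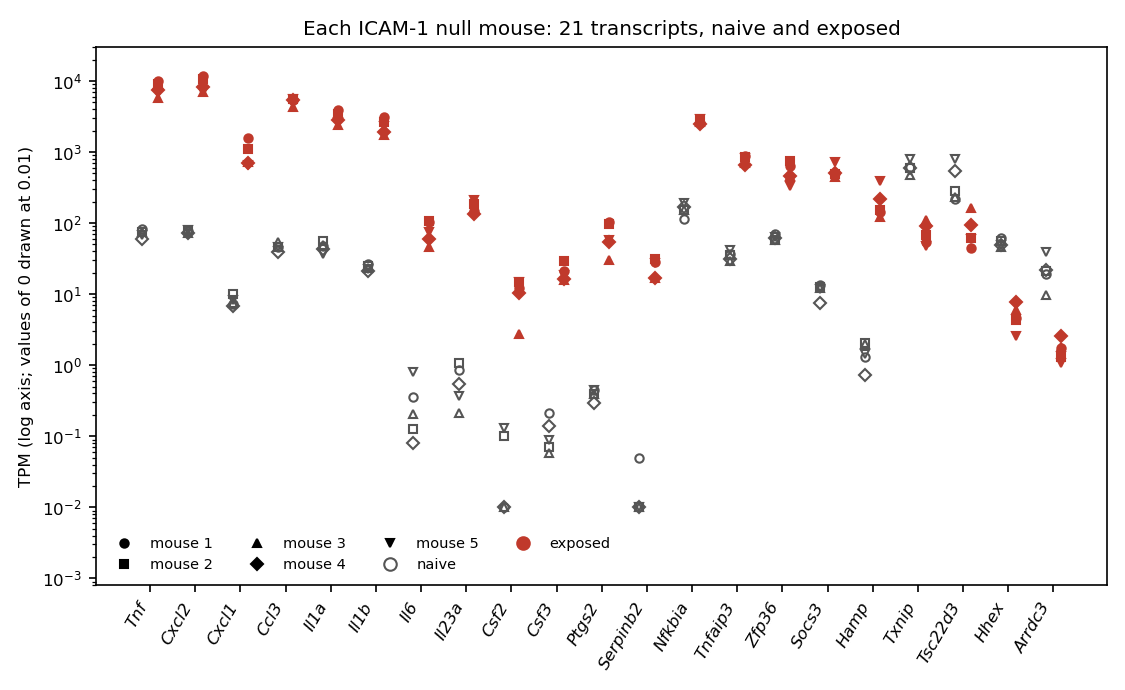
TPM of 21 transcripts (log axis) in each of 5 naive (open) and 5 exposed (filled) null mice, with 1 symbol shape per mouse number within its group. No naive and exposed points overlap for any of them, and the spread of exposed mice is widest at Csf2, where mouse 3 stands at 2.75 TPM.

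Cytokine receptors had smaller fold changes than their ligands. Of 38 receptors 18 rose, 9 fell and 11 did not pass; the median, 0.44, turned to -0.04 on the TPM scale with 11 of 36 higher and 14 lower. Tnfrsf1b, the second TNF receptor, went from 137 ± 14.7 to 711 ± 101 TPM, and Tnfrsf12a, the receptor of TWEAK, from 32.0 ± 3.08 to 200.2 ± 18.3 TPM. Csf2rb, the shared chain of the GM-CSF receptor, rose by 1.17 (SE 0.08) from an already high 296 to 379 TPM, and Ccr1 rose by 1.59 (SE 0.12). The chemokine receptor Cxcr4 fell, from 160.0, 191, 135, 181 and 223 TPM in naive to 61.3, 57.5, 65.9, 53.6 and 26.9 TPM in exposed mice (log2 fold change -1.39, SE 0.16, adjusted p = 4.7e-07). Every exposed mouse was below every naive mouse.

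The prostaglandin E2 route rose at its inducible steps. Ptgs2, or cyclooxygenase-2, stood at 0.442, 0.392, 0.392, 0.290 and 0.449 TPM in naive and 104, 98.2, 30.6, 54.7 and 58.0 TPM in exposed mice (log2 fold change 7.79, SE 0.35, adjusted p = 8.5e-14), and mouse 3 was again lowest. Ptges, the terminal synthase, went from 10.7 ± 1.31 to 152 ± 38.5 TPM. Ptgir, the receptor of prostacyclin and not of prostaglandin E2, rose by 1.91 (SE 0.20). The prostaglandin E2 receptor Ptger4 rose by 1.92 (SE 0.20). Ptger2, another receptor of prostaglandin E2, fell by 0.55 (SE 0.11), as did the leukotriene C4 synthase Ltc4s, by 0.49 (SE 0.09). The constitutive Ptgs1 did not pass (3.89 ± 1.24 to 2.36 ± 0.603 TPM), although limma called it lower on the TPM scale (-0.52, adjusted p = 0.048). Of all 19 genes of lipid mediators 5 rose and 3 fell (medians -0.08 and -0.44, with 5 of 16 higher and 10 lower on the TPM scale).

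Clotting and matrix protease genes rose in 16 of 23 cases and fell in 2 (medians 1.23 and 0.94, with 13 of 21 higher and 4 lower on the TPM scale). Serpinb2, or plasminogen activator inhibitor 2 (chromosome 1, 107439153 to 107463208), stood at 0.0494, 0, 0, 0 and 0 TPM in naive and 28.0, 31.7, 16.9, 16.9 and 27.8 TPM in exposed mice. Plaur, the urokinase receptor, went from 544 ± 49.2 to 1406 ± 174 TPM. F10, the gene of coagulation factor X, stood at 216, 207, 235, 229.6 and 258 TPM in naive and 987, 1047, 842, 971 and 1141 TPM in exposed mice (log2 fold change 2.53, SE 0.09, adjusted p = 2.0e-15). Thbd, or thrombomodulin, the anticoagulant receptor, fell from 21 to 36.2 TPM in naive mice to 1.48 to 4.34 TPM in exposed mice (log2 fold change -2.84, SE 0.24, adjusted p = 3.3e-09). Mmp13, a collagenase, went from 0.0763 ± 0.0735 to 11.0 ± 4.66 TPM, and Adam17, which sheds TNF from the cell surface, rose by 1.23 (SE 0.10).

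Co-stimulatory ligands and class II genes rose together in 11 of 18 members, with 3 falling (medians 0.86 and 0.50, with 10 of 18 higher and 5 lower on the TPM scale). Icosl, the ligand of ICOS, stood at 44.9, 41.5, 45.1, 43.1 and 47.6 TPM in naive and 225, 234, 212, 216 and 307 TPM in exposed mice (log2 fold change 2.73, SE 0.13, adjusted p = 2.3e-13). The CD28 ligands Cd80 and Cd86 rose by 1.01 (SE 0.11) and 1.72 (SE 0.20). Cd200r1, an inhibitory receptor, fell from 58.6 to 77.2 TPM in naive mice to 14.6 to 23.8 TPM in exposed mice (log2 fold change -1.51, SE 0.12, adjusted p = 1.6e-09), while Cd200, its ligand, rose by 1.72 (SE 0.32).

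With Icam1 disrupted, the other adhesion genes were listed in full. Of 27 ICAM, integrin and linker genes 16 rose, 2 fell and 9 did not pass; the median, 0.37, turned to -0.02 on the TPM scale with 8 of 26 higher and 4 lower. Icam2 and Icam4 did not pass, with 2.56 ± 0.988 to 2.05 ± 0.613 TPM and 6.36 ± 1.63 to 4.80 ± 1.01 TPM, and Icam5, which lies beside Icam1 on chromosome 9, fell. The beta-2 integrin chains that bind ICAM-1 changed little: Itgb2 did not pass (619 ± 63.7 to 555 ± 47.9 TPM), nor did Itgam (1.76 ± 0.364 to 1.78 ± 0.872 TPM). Itgal, at 109 ± 9.24 to 109 ± 14.2 TPM, rose by 0.37 (SE 0.09), a call lost on the TPM scale (0.00, adjusted p = 0.97). Itgb2 passed as higher with all mice in DESeq2 (adjusted p = 0.025) and in the null libraries fitted alone (0.034). It also did so in other settings of the count model (0.02 and 0.033), and without naive mouse 2 or exposed mouse 2 or 4 (0.022 to 0.047). Itga5, the fibronectin receptor chain, stood at 66.8, 72.9, 67.2, 74.6 and 69.0 TPM in naive and 409.8, 387, 336, 355 and 379 TPM in exposed mice (log2 fold change 2.77, SE 0.08, adjusted p = 4.7e-17). Itgav rose by 1.24 (SE 0.13), the hyaluronan receptor Cd44 by 1.01 (SE 0.09) and the membrane linker ezrin (Ezr) by 0.97 (SE 0.09). Vcam1, the ligand of integrin VLA-4, went from 1.46 ± 0.602 to 5.93 ± 2.72 TPM, as a member outside the naming rule that was chosen after its value was seen.

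Interferon-stimulated genes split, in shares near those of all genes (21.4% rising and 23.4% falling). Of 33 IRFs and stimulated genes 9 (27.3%) rose, 7 (21.2%) fell and 17 did not pass (medians -0.05 and -0.27, with 7 of 31 higher and 11 lower on the TPM scale). Irf5, which drives inflammatory cytokines, went from 47.9 ± 5.72 to 148 ± 30.0 TPM, Irf4 rose by 2.05 (SE 0.25) and the GTPase gene Gbp5 by 2.37 (SE 0.25). Ifit1, Mx1, Rsad2 and Usp18 did not pass, and Rigi, the sensor RIG-I, fell by 0.67 (SE 0.09). Ifit1 passed as higher without exposed mouse 4 (adjusted p = 0.035). With all mice Ifit1 passed in DESeq2 (0.038), in the null libraries fitted alone (0.011) and under a filter of 50 counts in 5 libraries (0.044).

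Genes of oxidative and metal stress rose in part. Of 21 NRF2 targets 10 rose and 2 fell, and the median of 0.34 was 0.00 on the TPM scale with 8 of 21 higher and 7 lower. Txnrd1, thioredoxin reductase, went from 116 ± 14.6 to 443 ± 54.8 TPM, Srxn1, sulfiredoxin, from 34.0 ± 5.03 to 148 ± 11.5 TPM and Sqstm1, the autophagy receptor p62, from 253 ± 40.5 to 1119 ± 147 TPM. Nfe2l2, the gene of NRF2, rose by 0.97 (SE 0.08) and Keap1, which targets it for degradation, fell by 0.96 (SE 0.09). Nqo1, Gclc and Gclm, other standard targets, did not pass, although Gclm was lower without exposed mouse 3 (adjusted p = 0.023) and on the TPM scale (log2 change -0.55). Of 18 metal genes 8 rose and 3 fell (medians 0.78 and 0.26, with 7 of 17 higher and 6 lower on the TPM scale). Mt1 stood at 713, 973, 895, 773 and 874 TPM in naive and 2075, 2211, 3384, 2666 and 3110 TPM in exposed mice (log2 fold change 2.03, SE 0.14, adjusted p = 2.1e-10). Hamp, the gene of the iron hormone hepcidin (chromosome 7, 30641793 to 30643457), stood at 1.30, 2.03, 2.00, 0.731 and 1.43 TPM in naive and 143, 153, 123, 217 and 389 TPM in exposed mice (log2 fold change 7.41, SE 0.37, adjusted p = 7.1e-13). Its near-identical neighbour Hamp2 was at 0 in naive mice and at 0.939, 1.15, 1.71, 3.70 and 5.88 TPM in exposed mice, and reads may be split between the 2 copies. Exposed mouse 5 held the highest and mouse 3 the lowest level of Hamp. Slc39a14, an importer of zinc and iron, rose by 1.27 (SE 0.10), and Slc39a10 fell by 0.76 (SE 0.09).

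Heat shock genes rose in 14 of 15 cases and none fell (medians 0.84 and 0.53, with 8 of 15 higher and 1 lower on the TPM scale, and 5 higher there with no filter on low values). Hspa5, the endoplasmic reticulum chaperone BiP, went from 520.4 ± 71 to 1048 ± 308 TPM, Hsp90aa1 from 169.6 ± 20.2 to 323 ± 19.1 TPM and the co-chaperone Bag3 from 23.6 ± 1.13 to 47.7 ± 4.51 TPM. In the stress and unfolded protein list 7 of 21 rose and 6 fell, and the median of 0.12 turned to -0.23 on the TPM scale with 6 of 21 higher and 9 lower. Ppp1r15a, or GADD34, the phosphatase subunit that restores translation, stood at 8.5, 11.0, 10.4, 9.01 and 10.3 TPM in naive and 101, 100.5, 79.0, 71.1 and 67.6 TPM in exposed mice (log2 fold change 3.44, SE 0.12, adjusted p = 2.3e-15). Atf4 rose by 1.16 (SE 0.08) and the degradation factor Herpud1 by 1.57 (SE 0.11). The ATF4 targets Trib3 and Asns did not rise: Trib3 fell by 0.82 (SE 0.24) and Asns did not pass (14 ± 4.96 to 9.32 ± 2.56 TPM), although limma called it lower on the TPM scale (-0.51, adjusted p = 0.017).

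Metabolic genes changed at control points. Of 28 glycolysis and HIF genes 15 rose and 2 fell, and the median of 0.29 turned to -0.06 on the TPM scale with 7 of 28 higher and 11 lower. Hexokinase 2 (Hk2) went from 17.6 ± 0.755 to 64.4 ± 12.4 TPM, and the glucose transporters Slc2a1 and Slc2a6 rose by 1.30 (SE 0.12) and 3.31 (SE 0.27). The 2 isoforms of phosphofructokinase-2/fructose-bisphosphatase in the list went opposite ways: Pfkfb3 rose by 1.86 (SE 0.10), and Pfkfb4 stood at 175, 146, 149.7, 159.7 and 149.7 TPM in naive and 32.7, 30.5, 50.1, 42.1 and 37.7 TPM in exposed mice (log2 fold change -1.53, SE 0.11, adjusted p = 2.3e-10). Of 16 genes of itaconate, arginine and polyamine metabolism 14 rose and none fell (medians 0.72 and 0.34, with 8 of 16 higher and 1 lower on the TPM scale). Acod1, which makes itaconate, stood at 3.46, 3.96, 3.42, 3.11 and 2.74 TPM in naive and 82.9, 102, 61.4, 70.7 and 122 TPM in exposed mice (log2 fold change 5.07, SE 0.32, adjusted p = 3.5e-11). Ch25h, which makes 25-hydroxycholesterol, went from 82.8 ± 27.3 to 934 ± 154 TPM, and the arginine transporter Slc7a2 from 149.5 ± 13.1 to 318 ± 58.3 TPM.

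Some cholesterol genes regulated by SREBP2 rose. Of 30 cholesterol genes 15 rose, 4 fell and 11 did not pass; the median, 0.33, turned to -0.03 on the TPM scale with 10 of 30 higher and 12 lower. Insig1, a feedback protein of the pathway, went from 53.7 ± 2.92 to 174 ± 24.6 TPM. Srebf2 rose by 1.02 (SE 0.09), and the exporter Abcg1 fell by 0.68 (SE 0.08), from 647 to 756 TPM in naive mice to 302 to 405 TPM in exposed mice. Among 33 genes of PPAR gamma and fatty acid handling 9 (27.3%) rose and 8 (24.2%) fell, near the 21.4% and 23.4% of all genes. The medians were -0.05 and -0.41. On the TPM scale 5 of 32 were higher and 17 lower, where 12.8% and 51.1% of all genes were. Pparg itself did not pass (236 ± 30.7 to 197 ± 42.7 TPM). The lipase inhibitors G0s2 and Hilpda went opposite ways: G0s2 stood at 40.5, 41.3, 42.8, 37.6 and 40.7 TPM in naive and 5.54, 4.66, 6.57, 5.66 and 2.53 TPM in exposed mice (log2 fold change -2.67, SE 0.22, adjusted p = 2.3e-09), and Hilpda at 8.30, 8.30, 7.82, 7.14 and 10.8 and 49.2, 71.1, 68.7, 51.2 and 103 TPM (log2 fold change 3.18, SE 0.26, adjusted p = 1.8e-09). Angptl4, a secreted lipase inhibitor, fell by 2.80 (SE 0.30) and Cpt1a, the entry step of fatty acid oxidation, by 0.88 (SE 0.09).

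Identity genes of alveolar macrophages stayed abundant, and a few rose further. Of 30 such genes 11 rose, 4 fell and 15 did not pass; the median, 0.15, turned to -0.21 on the TPM scale with 6 of 30 higher and 12 lower. Car4, a membrane-bound carbonic anhydrase, stood at 375, 439, 500.2, 421 and 446 TPM in naive and 1437, 1641, 1460, 1998 and 2082 TPM in exposed mice (log2 fold change 2.30, SE 0.13, adjusted p = 6.3e-12). Fabp4, a fatty acid binding protein, went from 277 ± 44.8 to 1189 ± 161 TPM, Spp1, or osteopontin, from 489.9 ± 91.5 to 1107 ± 173 TPM and the zinc transporter Slc39a2 from 108 ± 14.5 to 274 ± 25.9 TPM. Chil3, at 16820 ± 1447 to 14480 ± 1595 TPM, did not pass, and other settings called it in opposite directions. It passed as higher by edgeR without exposed mouse 1 (log2 fold change 0.2, adjusted p = 0.025). Limma called it lower on the TPM scale with all mice (-0.22, adjusted p = 0.043).

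Among 42 transcription factors of macrophages 16 rose and 12 fell, and the median of 0.22 turned to -0.10 on the TPM scale with 13 of 38 higher and 14 lower. Bhlhe40, a repressor needed for self-renewal of these cells, went from 128 ± 23.3 to 543 ± 37.8 TPM, and its relative Bhlhe41 rose by 0.72 (SE 0.12). Zeb2, which maintains tissue macrophage identity, went from 45.2 to 54.7 TPM in naive mice to 146 to 208 TPM in exposed mice, and Id2 from 129 ± 21.5 to 499 ± 106 TPM. The kappa B-binding zinc finger genes Hivep1, Hivep2 and Hivep3 rose by 2.16 (SE 0.13), 1.90 (SE 0.19) and 3.54 (SE 0.19). Hhex, a homeobox repressor, stood at 62.0, 55.9, 46.6, 48.9 and 48.5 TPM in naive and 4.61, 4.39, 6.06, 7.74 and 2.57 TPM in exposed mice (log2 fold change -3.0, SE 0.23, adjusted p = 5.4e-10). The myeloid factor Cebpa fell by 1.11 (SE 0.09) while Cebpb rose by 0.92 (SE 0.14).

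Growth genes fell more often than they rose. Of 12 genes of the MYC and MAX network 6 fell and 2 rose (medians -0.24 and -0.70, with 1 of 10 higher and 9 lower on the TPM scale), with Myc going from 62.1 ± 15.2 to 21.6 ± 5.50 TPM and its antagonist Mxd1 from 17.5 ± 3.94 to 84.3 ± 15.2 TPM. Of 44 cell cycle genes 20 fell and 9 rose (medians -0.30 and -0.60, with 6 of 44 higher and 33 lower on the TPM scale). Among the falls, E2f2, a factor of S phase entry, went from 15.3 ± 3.04 to 3.96 ± 0.686 TPM and Cdc25b, a phosphatase of cyclin-dependent kinases, from 59.9 ± 4.66 to 17.6 ± 3.73 TPM. The inhibitor Cdkn1a (p21) rose from 107 to 159.8 TPM in naive mice to 382 to 513 TPM in exposed mice, and Plk2 and Plk3, stress-induced polo-like kinases, rose by 4.43 (SE 0.17) and 2.18 (SE 0.14). Top2a and Ccnb1, markers of G2 and M phase, did not pass, with 61.4 ± 10.4 to 49.3 ± 4.61 TPM and 12.1 ± 3.73 to 10.2 ± 2.00 TPM. Top2a passed as higher without naive mouse 1 (adjusted p = 0.043), and limma called it lower on the TPM scale (-0.30, adjusted p = 0.016).

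Genes of survival and death rose in 15 of 30 cases and fell in 7 (medians 0.45 and 0.01, with 12 of 29 higher and 13 lower on the TPM scale). Cflar, the inhibitor of caspase-8, stood at 35.9, 30.1, 32.5, 32.6 and 33.2 TPM in naive and 253, 248, 176, 187 and 222 TPM in exposed mice (log2 fold change 3.43, SE 0.10, adjusted p = 6.7e-17). The BCL2 family genes Bcl2a1b and Bcl2a1d, close copies that may share reads, rose by 2.60 (SE 0.09) and 2.24 (SE 0.09). Of the pro-apoptotic BH3-only genes, Bcl2l11 (BIM) rose by 2.61 (SE 0.10), and Bmf stood at 40.1, 35.7, 33.7, 40.9 and 47.7 TPM in naive and 1.91, 3.15, 7.21, 4.93 and 1.95 TPM in exposed mice (log2 fold change -3.02, SE 0.32, adjusted p = 8.3e-08). The stress genes of the GADD45 family were divided: Gadd45a went from 10.2 ± 1.55 to 133 ± 13.8 TPM and Gadd45b from 27.8 ± 2.66 to 1421 ± 154 TPM, and Gadd45g fell from 336 to 553 TPM in naive mice to 56.9 to 87.8 TPM in exposed mice (log2 fold change -2.13, SE 0.18, adjusted p = 2.9e-09).

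Arrestin-like genes fell. Arrdc3, an alpha-arrestin, stood at 19.1, 20.9, 9.59, 21.7 and 38.8 TPM in naive and 1.72, 1.32, 1.81, 2.58 and 1.06 TPM in exposed mice (log2 fold change -3.36, SE 0.28, adjusted p = 2.5e-09). Its relatives Arrdc2 and Arrdc4 fell by 1.45 (SE 0.16) and 0.93 (SE 0.09). In the list of arrestins, clock genes and glucocorticoid targets 6 of 25 (24%) fell and 5 (20%) rose, near the 23.4% and 21.4% of all genes. The list's median of 0.01 turned to -0.39 on the TPM scale with 4 of 23 higher and 8 lower. Tsc22d3 (GILZ), a glucocorticoid target, stood at 220.2, 284, 234, 545 and 789 TPM in naive and 45.0, 62.2, 165, 94.5 and 59.3 TPM in exposed mice (log2 fold change -1.93, SE 0.36, adjusted p = 1.6e-04). Naive mice 4 and 5 were well above the other naive mice. Sgk1, also induced by glucocorticoids, rose by 1.26 (SE 0.09), and Fkbp5 and Per1 did not pass. Per1 was lower at adjusted p of 0.026 to 0.049 without naive mouse 1 or exposed mouse 3 or 4. With all mice it was lower in the null libraries fitted alone (0.044) and with a replicate block (0.014). Limma called it lower on the TPM scale as well (-1.05, adjusted p = 0.0049).

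Of 29 G protein-coupled receptors 10 rose and 11 fell, and the median of 0.06 turned to -0.45 on the TPM scale with 8 of 26 higher and 14 lower. The adenosine A2 receptors rose, Adora2b from 7.77 ± 2.39 to 88.0 ± 15.3 TPM and Adora2a from 0.916 ± 0.289 to 9.79 ± 3.73 TPM, whereas Adora3 fell by 1.78 (SE 0.26). Gpr84, a receptor of medium-chain fatty acids, went from 0.861 ± 0.281 to 19.4 ± 1.87 TPM, Gpr132 from 2.83 ± 0.335 to 17 ± 2.14 TPM and Hcar2, the niacin receptor, from 115 ± 25.2 to 604 ± 68.6 TPM. The UDP receptor P2ry6 fell from 46.7 to 53.5 TPM in naive mice to 11.2 to 18 TPM in exposed mice, and the adrenergic receptor Adra2a fell by 3.49 (SE 0.50). Gpr33 fell by 3.15 (SE 0.86) at a low level.

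Most zinc finger genes fell. Of 383 tested protein-coding genes whose symbols begin with Zfp, Zkscan, Zscan or Zik, 246 (64.2%) fell and 30 (7.83%) rose. The shares were 23.4% and 21.4% over all genes and 27.9% and 22.8% over protein-coding genes. The median log2 fold change was -0.88. On the TPM scale it was -0.94 with 12 of 333 higher and 273 lower, where 12.8% and 51.1% of all genes were. Most of these genes encode DNA-binding repressors with a KRAB domain, and the group is defined by symbol among protein-coding genes, not by domain. Zfp937 stood at 2.23, 2.78, 2.33, 2.36 and 2.04 TPM in naive and 0.0453, 0.0776, 0.211, 0.192 and 0.239 TPM in exposed mice (log2 fold change -3.52, SE 0.35, adjusted p = 4.2e-08). Zkscan8 went from 3.24 ± 0.462 to 0.530 ± 0.0522 TPM and Zfp738 from 6.46 ± 0.0683 to 2.13 ± 0.443 TPM, and both fell. Among those that rose were Zfp422 (from 9.83 ± 0.465 to 33.0 ± 2.91 TPM), Zfp800 (from 7.11 ± 0.935 to 21.5 ± 4.64 TPM) and Zfp36, an RNA-binding protein that shares only the prefix.

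Other large falls were scattered. Prr33, a proline-rich protein gene, went from 17.7 ± 2.47 to 1.75 ± 0.414 TPM, Inka1, an inhibitor of the kinase PAK4, from 11.1 ± 2.08 to 1.05 ± 0.427 TPM and Pram1, an adaptor of myeloid cells, from 6.25 ± 1.03 to 0.770 ± 0.537 TPM. The microRNA loci Mir6403 and Mir181a-1hg, read here from poly(A) libraries and therefore not as mature microRNAs, fell: Mir181a-1hg went from 1.68 ± 0.532 to 0.119 ± 0.0773 TPM, and Mir6403 from 1.43 to 3.32 TPM to 0 in all 5 exposed mice. A second annotated locus with the symbol Aldoa (ENSMUSG00000114515.3) fell from 1.67 to 0.119 TPM, while the glycolytic gene Aldoa stood at 1381 and 1246 TPM.

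RNA classes differed. Of 14350 protein-coding genes 22.8% rose and 27.9% fell, and of 2529 long non-coding RNA genes 12.3% rose and 21.5% fell. Of 2114 processed pseudogenes 29.4% rose and 2.6% fell. These are intronless copies, many of them of ribosomal protein genes, and reads of the parent genes may be assigned to them. Of 82 cytosolic ribosomal protein genes 71 rose and none fell by edgeR, at a median of only 0.30, and on the TPM scale the median was -0.05 with 2 higher and 11 lower. None of the 13 mitochondrial protein genes passed on either scale. Gene length was looked at as a further description. The median genomic span of 322 protein-coding genes that rose at least 8-fold was 11.0 kb, against 25.4 kb for 7083 that did not pass and 14 kb for 208 that fell at least 4-fold.

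Exposed mice differed from each other more than naive mice. The median coefficient of variation was 8.88% over 8415 genes of at least 10 TPM in naive mice and 11.1% over 7474 genes in exposed mice. It was 26.5% over the 87 genes of that level that had risen at least 16-fold. Among these 87 genes, exposed mouse 1 held the highest value in 39 cases, mouse 5 in 25, mouse 2 in 19 and mice 3 and 4 in 2 each. Mouse 3 held the lowest value in 47 cases and mouse 5 in 21. Of abundant called genes, Ppfia3, a scaffold gene, and Ckap2l, a spindle gene, were among the most variable: Ppfia3 stood at 0.802, 0.439, 1.45, 1.14 and 0.879 TPM in naive and 52.2, 94.9, 35.5, 113 and 198 TPM in exposed mice. The airway secretory transcripts Bpifa1 and Scgb3a2 varied as widely, with 474, 344, 99.2, 359.9 and 75.7 TPM of Bpifa1 in exposed mice 1 to 5.

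The response was tested against that of wild type mice by the interaction, the log2 fold change in null minus that in wild type mice. It passed for 68 of 20501 genes (0.332%), 37 higher (0.18%) and 31 lower (0.151%), and 2019 genes had an unadjusted p under 0.05. Of the 9180 genes that changed in null mice, 59 (0.643%) passed the interaction. Among the 68 genes, 34 rose more and 14 rose less in null mice, 10 fell further, 1 fell less and 9 did not pass in null mice. This count depends on the method and on single mice. DESeq2 gave 107 higher and 133 lower. Leaving out 1 null library gave 22 to 47 higher and 16 to 32 lower genes, with 24, 22 and 24 higher without naive mouse 1, naive mouse 4 and exposed mouse 2, and 16, 19 and 20 lower without naive mouse 2, exposed mouse 2 and exposed mouse 4.

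Some inflammatory ligands rose less in null than in wild type mice. The interaction passed, in either direction, for 1 of 20 interleukins, 1 of 14 CXC ligands and 1 of 14 CC and related genes. It passed for 0 of 17 genes of the TNF superfamily and colony-stimulating factors. Cxcl3 rose by 6.48 (SE 0.21) in null and 8.02 (SE 0.25) in wild type mice, a difference of -1.55, SE 0.26, adjusted p = 0.00743. Its levels were 11.9, 10.9, 10.9, 10.4 and 11.0 TPM in naive and 954, 691, 503, 578 and 869.6 TPM in exposed null mice, against 3.58, 6.44, 6.81 and 7.49 TPM in 4 naive and 1211, 941, 1122, 1283 and 1325 TPM in 5 exposed wild type mice. Osm, the gene of oncostatin M, rose by 2.42 (SE 0.17) and 4.02 (SE 0.20) (difference -1.61, SE 0.24, adjusted p = 0.00218). Ereg, the growth factor epiregulin, rose by 5.63 (SE 0.36) and 8.32 (SE 0.46) (difference -2.70, SE 0.50, adjusted p = 0.018). H2-M2, a non-classical class I gene, and Fam167a rose less as well, with differences of -1.45, SE 0.31, adjusted p = 0.0439 and -1.59, SE 0.33, adjusted p = 0.041. Samd11 did not pass in null mice, with 2.85, 2.75, 3.82, 4.48 and 3.28 TPM in naive and 4.57, 5.86, 2.09, 3.51 and 4.45 TPM in exposed mice, and rose by 5.36 (SE 0.46) in wild type mice (difference -4.74, SE 0.55, adjusted p = 2.0e-04). Fstl1, a follistatin-like gene, did not pass in null mice either (0.55, SE 0.25) and rose by 2.47 (SE 0.31) in wild type mice (difference -1.92, SE 0.39, adjusted p = 0.0333). In the 10 fits that left out 1 null library the call was lost 8 times for H2-M2, 7 times for Fam167a and 4 times for Fstl1, with adjusted p of up to 0.087, 0.087 and 0.071, and never for Cxcl3, Osm, Ereg or Samd11. Fstl1 passed in null mice, at adjusted p of 0.032 and 0.043, without exposed mouse 4 and without naive mouse 2, and with all mice in DESeq2 (0.048).

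Others rose more in null mice. Mid1, the ubiquitin ligase midline 1, stood at 5.52, 3.06, 5.38, 5.55 and 6.99 TPM in naive and 142, 106, 67.5, 125 and 23.5 TPM in exposed null mice, against 9.31, 7.29, 8.80 and 10.5 and 16.6, 26.8, 27.7, 28.3 and 16.9 TPM in wild type mice (difference 2.59, SE 0.45, adjusted p = 0.0113). C4a, a complement C4 gene with a close copy, rose by 3.25 (SE 0.27) in null and 0.87 (SE 0.27) in wild type mice (difference 2.38, SE 0.37, adjusted p = 0.00249), and Proz, protein Z of the clotting system, by 3.11 (SE 0.19) and 1.36 (SE 0.19) (difference 1.75, SE 0.25, adjusted p = 0.0015). Cdc42bpg, a kinase gene, rose by 2.67 (SE 0.15) and 1.11 (SE 0.15) (difference 1.56, SE 0.20, adjusted p = 3.5e-04), and the same direction held for Eldr and Tspoap1. Pts, which takes part in making tetrahydrobiopterin, stood at 36.4, 37.9, 40.7, 46.7 and 52.7 TPM in naive and 63.6, 73.7, 68.7, 57.6 and 74.9 TPM in exposed null mice, and at 44.5, 37.0, 47.0 and 48.1 TPM and 21.5, 34.5, 31.4, 28.4 and 22.5 TPM in the wild type mice. It rose in null mice by 1.26 (SE 0.10) while the wild type value was -0.46 (SE 0.10) (difference 1.73, SE 0.14, adjusted p = 7.8e-07). Ppfia4 did not pass in null mice (-0.36, SE 0.21) and its wild type value was -1.71 (SE 0.18). Ppfia4 lost the interaction call in 6, Tspoap1 in 7 and Eldr in 3 of the 10 fits without 1 null library (adjusted p of up to 0.074, 0.076 and 0.056). Without exposed mouse 1 Ppfia4 fell in null mice as well, at an adjusted p of 0.011. Mid1, C4a, Proz, Cdc42bpg and Pts kept theirs in all 10.

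**Figure D4:**
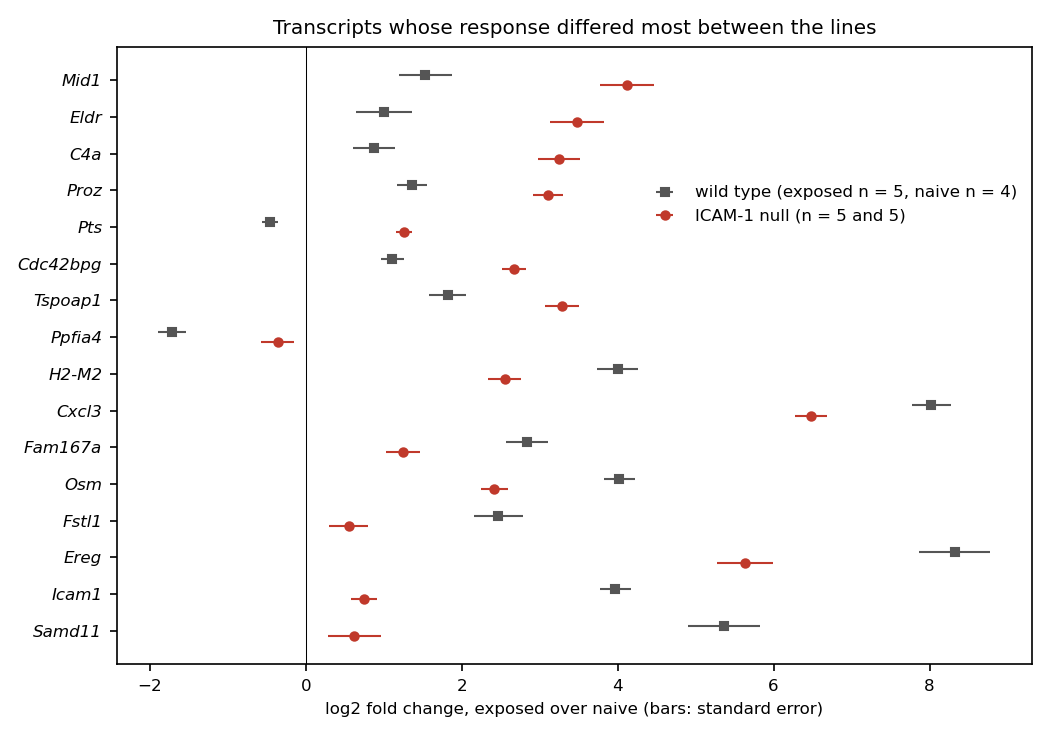
Log2 fold change on exposure (edgeR, bars are SE) in ICAM-1 null and wild type mice for the 16 named transcripts with the largest differences that passed the interaction test. Samd11 and Icam1 stand at 0.62 and 0.75 in null mice against 5.36 and 3.97 in wild type mice, and Mid1 at 4.12 against 1.53.

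Among listed genes with smaller differences that passed were Dusp5 (0.96, SE 0.14, adjusted p = 0.0015), Mxd1 (1.33, SE 0.20, adjusted p = 0.00215), Il17ra (0.66, SE 0.13, adjusted p = 0.0263) and Pfkfb3 (0.71, SE 0.14, adjusted p = 0.0321), all higher in the null response. Lower in it were Ccl22 (-1.04, SE 0.19, adjusted p = 0.0138), Nampt (-0.59, SE 0.13, adjusted p = 0.0466) and Slc11a2 (-1.34, SE 0.16, adjusted p = 2.0e-04). The call of Nampt was lost in 8 of the 10 fits without 1 null library, that of Pfkfb3 in 3 and that of Il17ra in 2 (adjusted p of up to 0.098, 0.064 and 0.055). None of the NF-kB subunits and none of the IkB and IKK genes passed the interaction.

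Markers of other cells moved with exposure. Of 14 squamous epithelial markers 9 passed the filter on low counts, and 7 of these rose (on the TPM scale 6 of 7 higher and 0 lower). The list summed to 1.42 to 4.18 TPM in naive and 18.1 to 37.8 TPM in exposed mice. Cnfn, Krt6a and Crct1 had no counts in naive null mice, so that these members could only rise and the share is tilted toward rises. Cnfn, the cornified envelope gene cornifelin, was one of the largest rises. It was at 0 in all naive mice and at 1.13, 2.09, 2.69, 1.76 and 7.42 TPM in exposed mice, at least 5.90-fold higher against the floor of 3 fragments per library. Psca and Krt13 went from 0.130 ± 0.240 to 10.2 ± 4.63 TPM and from 0.0661 ± 0.105 to 4.51 ± 2.14 TPM. Club and secretory cell markers rose in 12 of 16 (on the TPM scale 7 of 14 higher and 2 lower, and 1 of 16 higher with no filter on low values) and summed to 501 to 718 TPM in naive and 747 to 1450 TPM in exposed mice, with Scgb1a1 at 218, 165, 209, 172 and 264 TPM in naive and 516, 365, 431, 435 and 451 TPM in exposed mice. Ciliated markers overlapped between the groups (117 to 176 and 123 to 157 TPM).

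Leukocyte markers gave a mixed picture. Of 12 neutrophil markers tested 5 rose and 1 fell (on the TPM scale 2 of 8 higher and 3 lower). Trem1 and Ltf made up most of the gain in TPM, while S100a8 stood at 29.7 ± 3.56 to 38.2 ± 10.7 TPM and Csf3r fell by 0.51 (SE 0.07). The call of S100a8 was lost without naive mouse 2 or 4 or exposed mouse 2 or 3 (adjusted p of 0.05 to 0.071) and on the TPM scale (0.23). Mpo was at 0 in naive mice and at 1.54, 0.694, 0.102, 0.479 and 0.183 TPM in exposed mice. Markers of monocytes and interstitial macrophages summed to 98.0 to 119 and 405 to 493 TPM, of which Nr4a1, also an early response gene, made up 314 to 400.5 TPM in exposed mice. The complement genes C1qa, C1qb and C1qc rose by 1.97 (SE 0.43), 1.92 (SE 0.39) and 1.91 (SE 0.37), and Ly6c2 did not pass (22.4 ± 3.41 to 21.6 ± 2.19 TPM). Dendritic cell markers rose in 7 of 12 (on the TPM scale 5 of 9 higher and 1 lower) and summed to 38.5 to 54.3 and 57.8 to 68.8 TPM. T and NK cell markers summed to 682 to 831 and 621 to 708 TPM, B and plasma cell markers to 0.548 to 4.29 and 1.66 to 5.20 TPM and red cell and platelet markers to 101 to 355 and 135 to 355 TPM, each overlapping between the groups. Alveolar epithelial markers summed to 163 to 218 and 185 to 255 TPM and endothelial and stromal markers to 62.4 to 66.1 and 51.0 to 68.4 TPM. The part of these cells in the gene changes above was not tested.

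**Figure D5:**
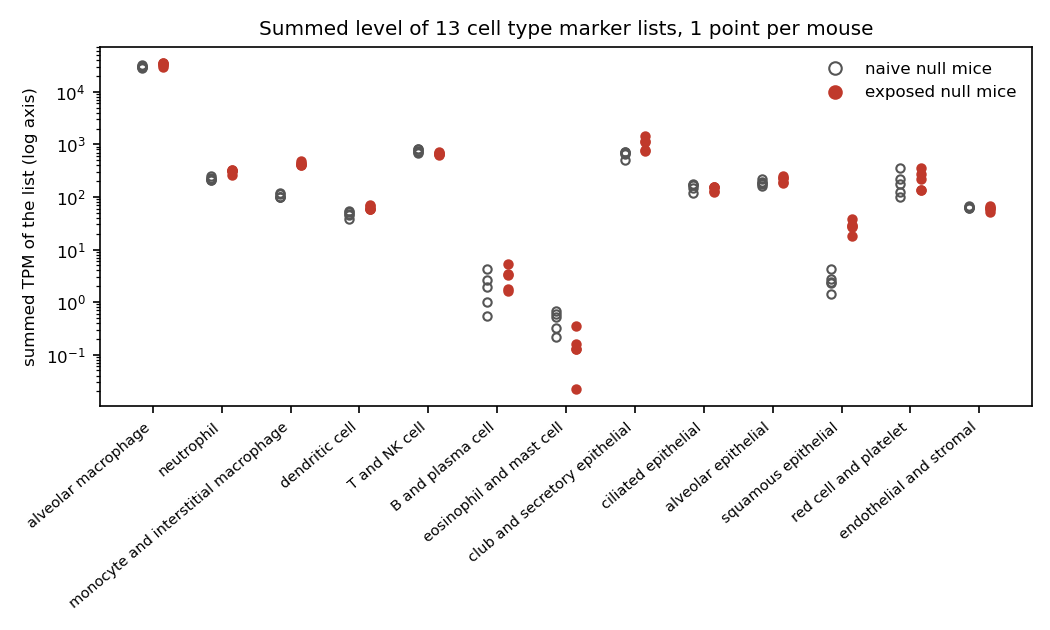
Summed TPM (log axis) of 13 marker lists in each of 5 naive (open) and 5 exposed (filled) null mice. Alveolar macrophage markers stand at 28600 to 34900 TPM in all mice, and the squamous list is the 1 with the widest gap between the groups.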

How the data were processed

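Lavage cell pellets of 19 mice were sequenced as poly(A) libraries, per the labels' protocols. For 56941 genes the deposited tables give TPM and whole-numbered estimated counts. Both were made by the authors with STAR, StringTie version 2 and build GRCm39, per the submitters' processing notes. The deposited TPM values have the same sum in each library, which ties every level to the rest of its library. No source used here gives the strand or counting options, and overlapping, antisense and near-identical genes may share reads.

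Estimated counts (57.0 to 78.8 M per null library) entered edgeR 4.0.16 (R 4.3.3): quasi-likelihood F test, two-sided, all 19 libraries, 4 group means, TMM scaling, and filterByExpr (minimum count 10, total 15). The contrasts were exposed against naive null mice and the interaction with wild type. Count depth was ample for all but the rarest genes, where 1 fragment was taken as about 4 counts, an assumption, so that the floor of 3 fragments is 12 counts and covers counting error only. The script was checked on simulated counts with known fold changes. Alternatives, described at the end, included DESeq2 1.42.0 and limma 3.58.1 on log2(TPM + 1).

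The members and the gene lists were chosen with earlier results of these data known. Genes were named if among the 15 largest rises or falls (at least 1 TPM, no overlap). So were the 6 smallest adjusted p of a list with its largest fall. The 8 largest interactions each way (at least 5 TPM) were named too. Among called genes, the 10 largest gains or losses of TPM and the 8 most variable (at least 50 TPM) were added. Predicted genes were not named, and a few others are not reported here. List members outside this rule were named after their values were seen, to show family members or what did not pass. Replicate numbers did not pair the mice. No pair of libraries within a group was identical.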

Additional observations from a re-analysis of the deposited data

Results flagged for a closer look

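In 35 of 610 groups of 5 null mice (5.74%; chance gives about 1 in 20) a single mouse stood far from the other 4 by Dixon's test. In exposed mouse 3 Ccl3 stood at 4271 TPM against 5397 to 5603 in the others and Ptgir at 41.1 against 74.5 to 85.4. In the same mouse Irf4 (2.15 TPM) and Tnfsf14 (5.31 TPM) were also lowest, and Angptl4 (11.5 TPM) was highest. Exposed mouse 5 was highest for Socs3 (714 TPM, others 450 to 508), Irf5 (200 TPM), Icosl (307 TPM), Relb (181 TPM), Slc39a2 (320 TPM), Srebf2 (101 TPM) and Cnfn (7.42 TPM), and lowest for Rigi (9.16 TPM). Exposed mouse 2 was highest for Cxcl9 (7.16 TPM, others at most 2.62), Cd86 (30.6 TPM), Birc2 (20.1 TPM) and Gpr33 (0.469 TPM), and exposed mouse 1 for Flna (595 TPM, others 458 to 468), Siglec1 (44.7 TPM), Srxn1 (168 TPM) and Fam167a (8.27 TPM).

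Among naive mice, Gadd45g stood at 553 TPM in mouse 3 (others 336 to 364), Cebpb at 391 TPM in mouse 1 (others 547 to 578) and Spp1 at 649 TPM in mouse 2 (others 415 to 467). Further naive values that stood apart were Abcg1 at 647 TPM in mouse 3, Adam17 at 62.3 TPM in mouse 2, Krt79 at 652 TPM and Bcl2a1d at 220 TPM in mouse 4, and Top2a at 79.3 TPM in mouse 1. In naive mouse 5 these were Tnfrsf12a (26.7 TPM), C1qc (1.71 TPM), Tnfsf10 (0.554 TPM) and Psca (0.553 TPM). Il10 (0.151 TPM) and Serpinb2 (0.0494 TPM) were above 0 in naive mouse 1 alone.

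The responses of null and wild type mice differed by edgeR's interaction test for 23 of the named genes, as log2 fold change in null minus that in wild type mice. Icam1 (-3.21), Ereg (-2.70), Osm (-1.61), Cxcl3 (-1.55), Ccl22 (-1.04) and Nampt (-0.59) had lower values in null mice, as did Samd11 (-4.74), Fstl1 (-1.92), Fam167a (-1.59), H2-M2 (-1.45) and the iron transporter gene Slc11a2 (-1.34). Higher in null mice were Mid1 (2.59), Eldr (2.48), C4a (2.38), Proz (1.75), Pts (1.73), Cdc42bpg (1.56), Tspoap1 (1.47), Ppfia4 (1.35), Mxd1 (1.33), Dusp5 (0.96), Pfkfb3 (0.71) and Il17ra (0.66).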

How the results depend on the processing

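The choice of scale moved the numbers of genes that rose and fell. EdgeR called 4387 genes higher and 4793 lower. Limma, with a filter of its own, called 2001 higher and 7993 lower on log2(TPM + 1), 1981 and 7924 on log2(TPM + 0.1), and 2207 and 8192 with no filter on low values. The median log2 change over all genes was -0.32 on the first of these scales. On it or its variants the signs of Aldoa (-0.15), Chil3 (-0.22), Chuk (-0.22), Ikbkb (-0.25), Itgax (-0.06), Mrc1 (-0.25) and Top2a (-0.30, and -0.31 with the smaller pseudocount) turned, each value smaller in size than that median. On log2(TPM + 1) with its filter, limma called each of them but Itgax lower, at adjusted p of 0.0012 to 0.043. Other settings of the count model, the null libraries fitted alone and DESeq2 gave 3994 to 4798 higher and 4403 to 4814 lower genes, and leaving out 1 null library gave 4005 to 4237 higher and 4434 to 4828 lower. Of 305 named genes, 275 kept direction and call in every alternative that tested them, and 299 were tested in all 19.

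The interaction with genotype moved more, from 37 higher and 31 lower genes to 107 and 133 with DESeq2 and to 21 and 17 with no filter on low counts. On log2(TPM + 1) limma gave 72 higher and 36 lower, and 37 higher and 17 lower with no filter on low values. Leaving out 1 null library gave 22 to 47 higher and 16 to 32 lower genes. Of 23 named interactions 12 kept their call in all 18 alternatives that include wild type mice and none changed sign. The causes were not tested. Wild type libraries were not left out in turn.

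A replicate block gave 4225 higher and 4812 lower genes, and 27 and 25 for the interaction. Deviations of same-numbered naive and exposed null mice correlated at -0.05 to 0.01, so the numbers pair no mice. Depth set a limit for the rarest genes. The floor of 3 fragments per library is a chosen value that rests on the assumed 4 counts per fragment. Deposited counts of 1 to 3, below 1 such fragment, also occurred.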
